A study of Mus musculus with 50 samples.

Results

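Lysosome and V-ATPase genes were examined in 50 single mouse cells. They were the rows whose gene symbol begins with Atp6v (subunits of the vacuolar proton pump), is Cts with 1 further letter (cathepsins, except Ctsg), or is Lamp or Lamtor with a number. Of 11879 rows in the table, 32 met this rule, namely 15 V-ATPase subunits, 13 cathepsins, and the membrane and membrane-associated proteins Lamp1, Lamp2, Lamtor2 and Lamtor3. The rule reads gene symbols and no measured value, but it was set with earlier results of these data known.

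The cells were iRunx1-iHECs, induced hemogenic endothelial progenitors made in culture from 1 C57BL/6 embryonic stem cell line. This line carries an inducible Runx1 cassette in the Rosa26 locus, which doxycycline switched on during differentiation in medium conditioned by AFT024 cells. All 50 cells carried the cassette and were sorted as CD31+CD41lowCD45-c-kit+CD201high. There was no second group, and the labels name no culture or animal, so the cells were taken as 1 sample without replicates and nothing was tested. Values are TPM, transcript abundances scaled to a common total, which correct for transcript length but keep no sequencing depth. The number of genes above TPM 1 stands in for depth below; its median was 6223.5 genes, cell 4-6 had the fewest with 2400, and the other 49 cells lay between 4326 and 8615. The sort was compared with lists of markers, which did not hold Kit or Procr, the genes of c-kit and CD201. All 10 endothelial markers exceeded TPM 1 in 90% of cells or more, led by Egfl7, Esam and Eng at medians of 1044, 516 and 345 TPM. Ptprc, which encodes CD45, was listed at 0 in every cell, while the highest leukocyte rows were Arhgdib, Lcp1 and Laptm5 at 999.5, 199.5 and 194 TPM. The highest early blood rows were Runx1, Itga2b and Lmo2 at 132, 42.98 and 30.9 TPM, of which Runx1 is also the gene of the induced cassette. Of 10 early blood rows, 5 exceeded TPM 1 in 20% of cells or more and none in 90% or more. Gata1, Myb and Spn were listed at 0 throughout. No mesenchymal or erythroid row exceeded TPM 1 in 20% of cells. Of 14 myeloid rows, 6 exceeded TPM 1 in 20% of cells or more, the summed level of the list ran from 0.953 to 5745 TPM, and Cx3cr1, C1qa, C1qb and Itgam were listed at 0 throughout. The highest myeloid medians were those of Fcgr3, Fcer1g and Tyrobp, at 49.7, 25.2 and 2.31 TPM.

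Lysosomes break down proteins, lipids and sugars that reach them by endocytosis or autophagy. The V-ATPase acidifies them: its cytosolic V1 part splits ATP and turns a shaft, and its membrane part V0 moves protons. Cathepsins are the main lysosomal proteases and work best at acid pH, Lamp1 and Lamp2 line the inner face of the membrane, and the Ragulator complex, of which Lamtor2 and Lamtor3 are subunits, anchors the nutrient-sensing Rag GTPases to the outer face. Mature macrophages, whose fate depends on the transcription factor PU.1, are rich in lysosomes, which is the setting for the questions below about Sfpi1, the older name for Spi1 that encodes PU.1, and about Laptm5, a lysosomal membrane protein of blood cells.

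The factors TFEB and TFE3, regulators of lysosomal genes, bind DNA around the letters CACGTG. Promoter sequences of RefSeq on GRCm38.p6, from 250 bases before to 50 after a gene start, matched 22 of the 32 members with 26 promoters. Both strands were searched. CACGTG stood in 9 of the 26 promoters (34.6%), against 7.15% of 32851 promoters in the table of sequences and 9.90% of those of genes in the expression table. The longer TCACGTGA, each copy of which also holds CACGTG, stood in 5 of 26 (19.2%) against 0.974% and 1.85%. These windows are shown because they are the 5 promoters with the longer word, which is in capitals. Each is written 5′ to 3′ on the gene's strand.
Ctsd, chr7:142387909-142387936, minus strand: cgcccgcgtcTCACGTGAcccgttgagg
Ctsa, chr2:164833767-164833794, plus strand: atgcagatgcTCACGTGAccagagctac
Atp6v1a, chr16:44139374-44139401, minus strand: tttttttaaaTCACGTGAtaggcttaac
Atp6v0d1, chr8:105566051-105566078, minus strand: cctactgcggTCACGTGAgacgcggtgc
Atp6v0e, chr17:26676388-26676415, plus strand: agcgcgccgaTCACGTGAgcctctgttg

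Counted from RefSeq's gene start, the word began 99 bases before it in Ctsd, 132 before it in Atp6v1a and 4 before it in Atp6v0d1, and just after it in the copy of Ctsa shown and in Atp6v0e. Ctsa held a second copy beginning 13 bases before the start. Lamp1 had no TCACGTGA but 4 copies of CACGTG within the 61 bases upstream of its start, in capitals in the next sequence.
Lamp1, chr8:13159090-13159160, plus strand: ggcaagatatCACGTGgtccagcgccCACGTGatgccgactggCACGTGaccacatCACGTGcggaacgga

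For PU.1 the letters GAGGAAG were searched on both strands. They stood in 4 of 26 promoters (15.4%), those of Atp6v1d, Ctsc, Ctsk and Ctss, against 13.6% of all promoters, so the share among members was near that of promoters at large. The next windows show the copy nearest the start of Ctss, a cathepsin of macrophages and other antigen-presenting cells, and that of Ctsk, the cathepsin of bone-resorbing osteoclasts. Both copies lie on the strand opposite the gene, so the capitals read CTTCCTC.
Ctss, chr3:95526775-95526801, plus strand: tgaaagttcaCTTCCTCattgtggatg
Ctsk, chr3:95499141-95499167, plus strand: aatgtgtgtcCTTCCTCcctaacccct

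A matching word is a property of the letters only. Binding was not measured, and the factors themselves were sparse at the RNA level: Tfe3 was above TPM 1 in 22 cells, Tfeb in 12, Tfec in 11 and Mitf in 1.

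Most of the 32 genes were present in nearly every cell. Of the members, 14 were above TPM 1 in all 50 cells (7.15% of all rows were), 20 in at least 90% of cells (19% of all rows) and 3 in under 20% (23.4% of all rows). Summed over the members, a cell held between 3759 and 12382 TPM, with a median of 7436, which was 0.776% of its TPM. By class the median sums were 3236 TPM for the V-ATPase, 3078 TPM for the cathepsins and 1173 TPM for the 4 Lamp and Lamtor genes.

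**Figure D1:**
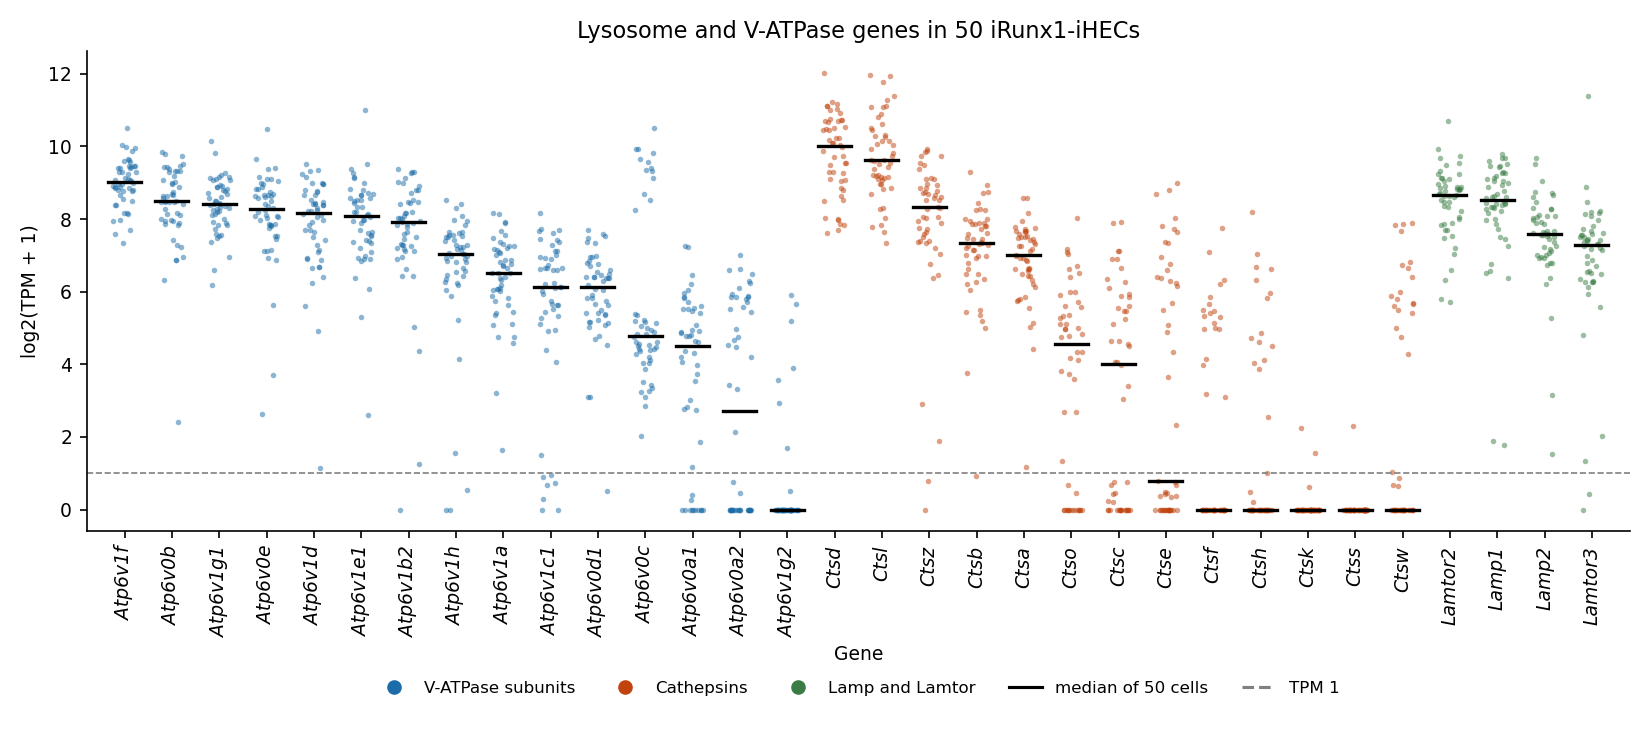
Each point is 1 of 50 cells, with log2(TPM + 1) on the vertical axis and the 32 genes, grouped by class and ordered by median, on the horizontal axis; black bars are medians and the dashed line is TPM 1. Most V-ATPase genes and the leading cathepsins formed 1 band, Atp6v0c formed 2 separate bands of 37 and 13 cells, and Ctss was above TPM 1 in 1 cell.

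Within V1, the subunits of the hexameric head bind ATP. Atp6v1a, the catalytic subunit A (GRCm38 chromosome 16, 44085402 to 44139705), was above TPM 1 in all 50 cells, from 2.121 to 286 TPM with a median of 90.8. Its partner in the head, Atp6v1b2 (subunit B, chromosome 8, 69088646 to 69113711), had a median of 239 TPM and a range of 0 to 670, with 49 cells above TPM 1. The other B isoform was not analysed here.

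The shaft and stalk genes of V1 were among the highest members. Atp6v1f (subunit F of the shaft, chromosome 6, 29467718 to 29470512) ran from 159.9 to 1449 TPM with a median of 517, the highest median of the V-ATPase genes. Atp6v1d, the other shaft gene, had a median of 288 TPM. Of the stalk genes, Atp6v1g1 had a median of 342 TPM (71.0 to 1134) and Atp6v1e1 of 272 TPM (5.13 to 2048). Atp6v1f and Atp6v1g1 also had the smallest spread of the members found in all cells, with an SD of log2(TPM + 1) of 0.66 and 0.75. The median SD over all 849 rows found in every cell was 1.00. In contrast, the second G isoform Atp6v1g2, known from neurons, was above TPM 1 in 7 cells and at 0 in 42, and its highest value was 59.3 TPM. Its locus overlaps Nfkbil1 on the opposite strand. With no strand stated for the counting, reads within the shared stretch may not be told apart, and the length of that stretch was not measured.

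The subunits that regulate assembly of V1 with V0 were found in fewer cells. Atp6v1c1 (subunit C) was above TPM 1 in 43 cells, or 86% (95% Clopper-Pearson interval 73.3% to 94.2%), at a median of 69.1 TPM. Atp6v1h (subunit H) was above it in 47 cells at a median of 130.2 TPM. The intervals given here cover counting error over cells only.

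In V0, the proteolipid ring carries the protons. The ring gene Atp6v0b (subunit c double prime, chromosome 4, 117884326 to 117887333) had a median of 362 TPM and a range of 4.28 to 912. The small subunit gene Atp6v0e had a median of 308 TPM (5.20 to 1425), and the stalk gene Atp6v0d1 of 68.8 TPM (0.431 to 205), with 49 cells above TPM 1.

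The main ring subunit Atp6v0c (chromosome 17, 24163866 to 24169702) differed in shape from the other pump genes. It was above TPM 1 in all 50 cells, from 3.04 to 1441 TPM with a median of 26.7. However, no cell lay between 41.2 and 305 TPM: 37 cells were at or below the first value, with a median of 21.2 TPM, and 13 were at or above the second, with a median of 675 TPM. Cells of the upper band came from each of the 4 first numbers in the cell titles, 2 to 6 cells per number. The SD of log2(TPM + 1) was 2.36, the 4th highest among the 849 rows above TPM 1 in every cell. The annotation names the pseudogenes Atp6v0c-ps1 and Atp6v0c-ps2, and how reads shared with such copies were assigned is not stated, so the level of Atp6v0c is uncertain. The part of shared reads in the 2 bands was not tested.

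The V0 a subunit exists as isoforms that steer the pump to different membranes. Atp6v0a1 was above TPM 1 in 38 cells (median 21.7 TPM, highest 153) and Atp6v0a2 in 26 cells (median 6.16 TPM, highest 129). Tcirg1, which encodes the a3 isoform of lysosomes and osteoclasts and whose symbol lies outside the rule, was above TPM 1 in 38 cells (median 40.4 TPM, highest 279.8). In the 47 cells with any of the 3 isoforms above TPM 1, Tcirg1 gave the largest value in 22, Atp6v0a1 in 13 and Atp6v0a2 in 12. The median share of V0 a TPM was 43.9% for Tcirg1, 25.6% for Atp6v0a1 and 10.1% for Atp6v0a2. A single isoform was above TPM 1 in 10 cells, 2 isoforms in 19 and all 3 in 18. The TPM of these genes had a rho with the number of genes per cell of 0.31 for Atp6v0a1, 0.24 for Tcirg1 and 0.19 for Atp6v0a2. Over all rows the median of this rho was 0.20. The part of the number of genes in these counts was not tested.

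When genes were counted by place in the pump, 13 positions could be scored (A to H of V1; a, c, c double prime, d and e of V0), with Tcirg1 counted as V0 a. All 13 were filled by a gene above TPM 1 in 39 of 50 cells (78%, interval 64.0% to 88.5%), 12 were filled in 7 cells and 11 in 4. The empty position was V1 C in 7 cells, V0 a in 3, V1 H in 3, V1 B in 1 and V0 d in 1. Empty means that no gene was above TPM 1, not that all values were 0. Atp6v1c1 was at 0 in 2 cells and above 0 but not above TPM 1 in 5. For Atp6v1h these numbers were 2 and 1, and Atp6v0d1 was 0.431 TPM in cell 2-15. The 11 cells with an empty position had a median of 5019 genes above TPM 1 and the other 39 had 6390, and the number of positions went with the number of genes per cell at a Spearman rho of 0.49. The part of depth in the empty positions was not tested.

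**Figure D2:**
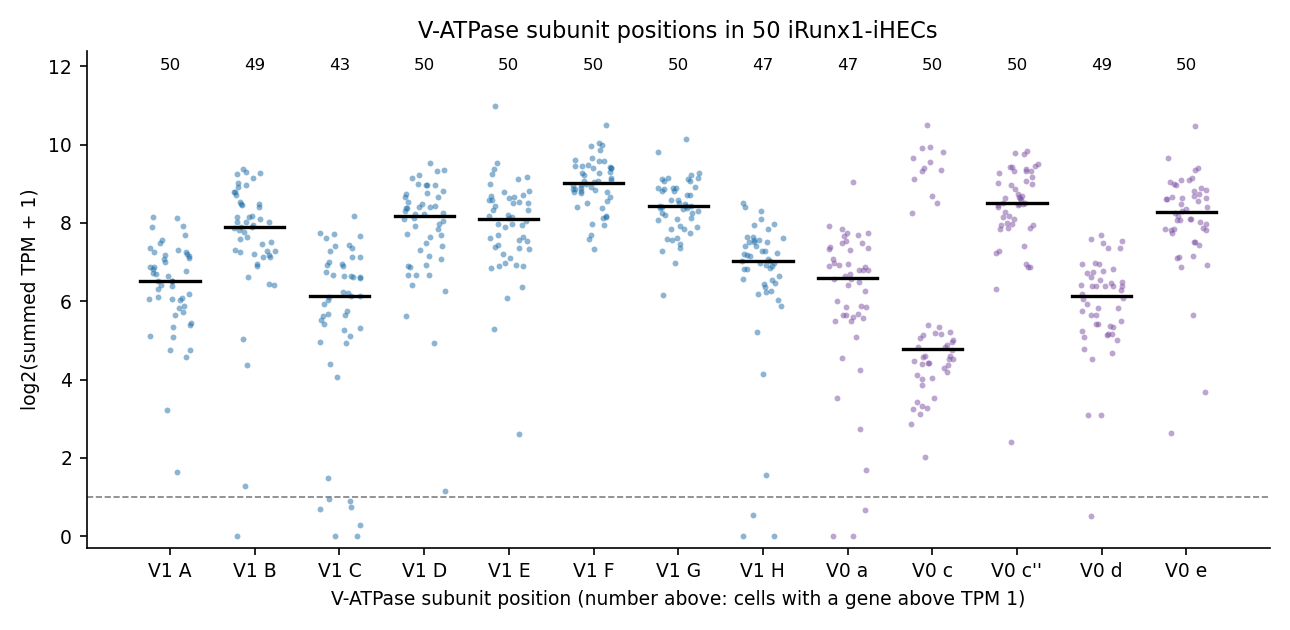
Each point is 1 of 50 cells, with log2 of the summed TPM of the genes at a position plus 1 on the vertical axis and the 13 subunit positions on the horizontal axis; bars are medians, the dashed line is TPM 1, and the numbers above are cells with a gene above TPM 1. V1 C was filled in 43 cells, the fewest of all positions, and V0 c had the lowest median.

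Among the cathepsins, 2 enzymes made up most of the level. Ctsd, an aspartic protease and the main endoprotease of its kind in lysosomes (chromosome 7, 142375911 to 142388038), ran from 195 to 4191 TPM with a median of 1030.3. Ctsl, a cysteine endoprotease (chromosome 13, 64359337 to 64370890), ran from 162 to 4004 TPM with a median of 783. Both were above 100 TPM in all 50 cells. Together they held a median of 68.6% of cathepsin TPM (40.96% to 93.1%), and the highest cathepsin of a cell was Ctsd in 28 cells, Ctsl in 20, Ctso in 1 and Ctsz in 1. On their own strands, Ctsl overlaps a processed pseudogene and Ctsd the protein-coding Gm49369, and how shared reads were assigned is not stated.

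A second group of cathepsins was lower but nearly as widespread. The carboxypeptidase Ctsz had a median of 319 TPM and was above TPM 1 in 48 cells, with a range of 0 to 972. Ctsb, a cysteine protease, had a median of 159.7 TPM in 49 cells (0.911 to 631), and Ctsa, which protects other lysosomal enzymes and cuts peptides itself, of 127 TPM in all 50 (1.26 to 384). Ctsb overlaps Fdft1 on the opposite strand, and Ctsa overlaps Neurl2 and Pltp in the same way, each with a row in the table.

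The remaining cathepsins were present in some cells and at 0 in others. Ctso was above TPM 1 in 35 cells and Ctsc, which activates granule proteases of immune cells, in 28. Ctse, an aspartic protease of endosomes, was above TPM 1 in 24 cells and above 100 TPM in 11, was at 0 in 17, and reached 505 TPM. Its SD of log2(TPM + 1), 3.38, was the 35th highest of 5892 rows found in 20% to 80% of cells. Ctsw, known from cytotoxic lymphocytes, was above TPM 1 in 20 cells, with an overlap with Fibp on the opposite strand. Ctsf followed with 19 cells and Ctsh, an aminopeptidase, with 16. A cell held between 6 and 11 cathepsins above TPM 1, with a median of 8.

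The cathepsins best known from macrophages and osteoclasts were nearly absent. Ctss was listed at 0 in 49 cells and at 3.88 TPM in cell 4-1, which was itself at 0 for Sfpi1. Ctsk was above TPM 1 in 2 cells, at 1.93 TPM in cell 1-9, where Sfpi1 was 745 TPM, and at 3.73 TPM in cell 2-16, where Sfpi1 was listed at 0. Of the inhibitors of cathepsins, Cst3 (cystatin C) and Cstb (cystatin B) were above TPM 1 in all 50 cells at medians of 488 and 379 TPM. Cst7, an inhibitor of leukocytes, was above TPM 1 in 1 cell, and Stfa1 and BC100530 were listed at 0 in all cells.

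The 2 Lamp genes were found in every cell. Lamp1 (chromosome 8, 13159161 to 13175338) had a median of 370.2 TPM and a range of 2.40 to 878, with 45 cells above 100 TPM. Lamp2 (chromosome X, 38401357 to 38456454) had a median of 192 TPM and a range of 1.91 to 816, also with 45 cells above 100 TPM. Lamp1 overlaps Grtp1 on the opposite strand. Of the Ragulator genes, Lamtor2 (chromosome 3, 88549819 to 88553074) had a median of 408 TPM (51.1 to 1678). Lamtor3 had a median of 155 TPM, was above TPM 1 in 48 cells, and had its highest value, 2688 TPM, in cell 4-6.

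Other lysosomal genes set the members in context. Of 37 further lysosomal hydrolases and activators, 35 exceeded TPM 1 in 20% of cells or more and 5 in 90% or more, led by Hexa, Asah1 and Psap at medians of 350.04, 338 and 151 TPM. Of 22 other lysosomal membrane genes, 20 and 7 met these limits, led by Cd63 (1249 TPM), Litaf (721 TPM) and Laptm4a (353 TPM). Of 11 pump accessory genes, 10 and 3 met them, with Rnasek at 627 TPM, Atp6ap1 at 233 TPM and Tmem199 at 104 TPM. Among 12 genes of the Rag and mTORC1 machinery that meets Ragulator, Rheb, Rraga and Rragc had the highest medians, at 230.2, 127 and 80.7 TPM. Of 9 genes that tag or sort lysosomal enzymes, M6pr, Gga2 and Gga1 were highest at 95.8, 45.1 and 12.7 TPM.

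The next question was whether these genes went with Sfpi1 from cell to cell. Sfpi1 (chromosome 2, 91082390 to 91115756) was above TPM 1 in 24 cells and at 0 in 21, with a median of 0.648 TPM and a highest value of 3843 TPM in cell 4-6. Spearman's rho was taken over the 50 cells for the 29 members that exceeded TPM 1 in 20% of cells or more, and is given as a description: the points share amplification and depth, and the 21 ties at 0 limit what a rank can show. None of the 29 members had a rho of at least 0.3 with Sfpi1 (1.13% of 9103 rows had). At -0.3 or below were 3 (285 of 9103 rows, or 3.1%): Ctsl, Lamp2 and Lamp1. By partial rho, with the number of genes above TPM 1 held fixed, 0 members were at 0.3 or above (1.92% of rows) and 2 at -0.3 or below (2.78% of rows), Ctsl and Lamp2. The median rho was -0.06 over members and -0.04 over all rows, and the median partial rho was -0.06 and -0.01.

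Ctsl had the lowest value, a rho of -0.36, which ranked 95th from the bottom of 9103 rows. The partial rho, with the number of genes per cell held fixed, was -0.42. Within the 4 first title numbers it ran from -0.58 to -0.27, and without the 2 cells of highest Sfpi1 it was -0.33. It was thus negative in each of these settings.

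For Lamp2 the rho was -0.34, with -0.56 to -0.19 within title numbers and -0.29 without those 2 cells. For Lamp1 it was -0.30, and -0.21 without them. The Lamp values therefore rested in part on a few cells. In cell 4-6, with 3843 TPM of Sfpi1 and the fewest genes, Lamp1 was 2.73 TPM, Lamp2 7.83 TPM and Ctsl 228 TPM. In cell 4-2, with 1149 TPM of Sfpi1, Lamp1 was 2.40 TPM, the lowest of all cells, while Lamp2 was 163 TPM and Ctsl 668 TPM. The next cell, 1-9, with 745 TPM of Sfpi1, had 175 TPM of Lamp1, 138 TPM of Lamp2 and 859.8 TPM of Ctsl.

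By class, the V-ATPase genes ran from -0.23 (Atp6v0a2) to 0.10 (Atp6v0b) with a median of -0.06. The cathepsins ran from -0.36 (Ctsl) to 0.20 (Ctsf), with Ctsb at -0.28 and Ctsd at -0.26, and had a median of -0.09. By Pearson's r of log2(TPM + 1), Atp6v1e1 (-0.33), Atp6v1d (-0.31) and Ctsd (-0.31) also passed -0.3, as did Ctsl (-0.45) and Lamp1 (-0.49), while Lamp2 was just short of it. Without the 2 cells of highest Sfpi1, r was -0.12 for Atp6v1e1, -0.02 for Atp6v1d, -0.18 for Ctsd and -0.24 for Lamp1. For Ctsl it was -0.41. The share of all rows past -0.3 by Pearson's r was not counted. Lamtor3 had the highest rho of the Lamp and Lamtor genes, 0.17, while by Pearson's r Lamtor2 was highest at 0.16. The 5 cells of highest Sfpi1 were all among the 11 cells with an empty pump position, and had between 2400 and 6786 genes above TPM 1. This count depends on the level of TPM 1. At the position counted as empty, Atp6v1c1 was 0.215, 0.607 and 0.847 TPM in cells 1-9, 2-3 and 2-6. The next 7 cells in order of Sfpi1 had all 13 positions. These counts were taken after the values had been seen.

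**Figure D3:**
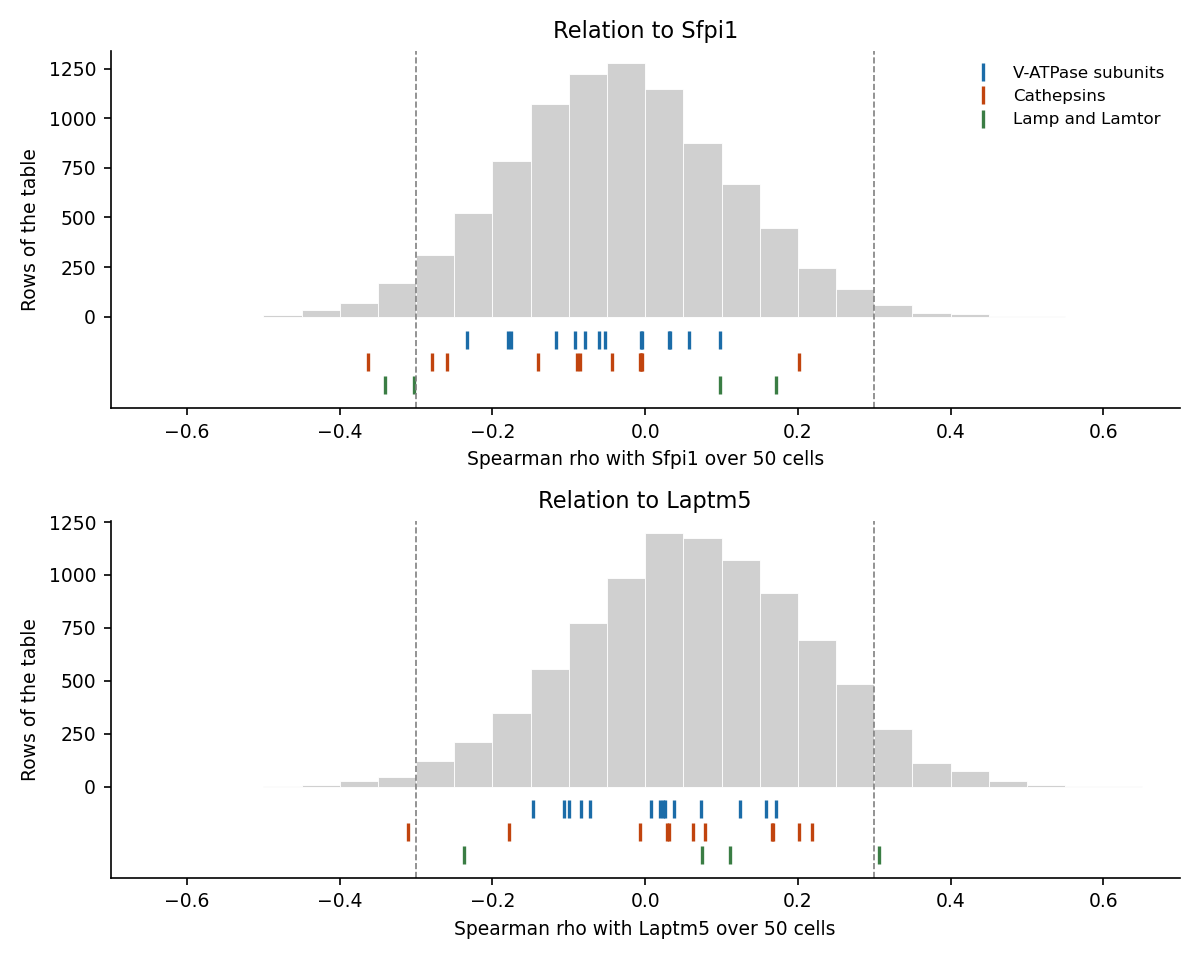
Grey bars count the rows of the table by Spearman rho with Sfpi1 (top) or Laptm5 (bottom) over 50 cells, coloured ticks under each histogram are the 29 members by class, and dashed lines mark -0.3 and 0.3. Members past the lines were Ctsl, Lamp2 and Lamp1 on the left for Sfpi1, and Ctsl on the left and Lamtor2 on the right for Laptm5.

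Outside the members, 91 genes of the lysosome lists could be related to Sfpi1. At -0.3 or below were 4 (4.4%, against 3.1% of all rows) and at 0.3 or above was 1 (1.1%, against 1.13%), so both shares were near those of all rows. Atp6ap2, an accessory subunit of the pump, had a rho of -0.38. Lgmn, a protease that processes cathepsins, was at -0.34, Mlst8, a part of mTORC1, at -0.32, and Cd63, a membrane protein of late endosomes, at -0.31. Man2b1, a lysosomal mannosidase, had a rho of 0.34. For comparison, the highest values in the whole table were those of Plek at 0.61, Vdr at 0.53, Plcg2 at 0.51, Rpl8 at 0.48 and Gpc3 at 0.47. Of the cell type markers, 1 of 5 myeloid rows was at 0.3 or above (Tyrobp, 0.40; Lyz2 was at 0.08) and 1 of 8 leukocyte rows (Vav1, 0.34; Lcp1 was at -0.17), and the list medians were 0.16 and 0.13. None of 5 early blood rows and none of 10 endothelial rows was at 0.3 or above, at list medians of 0.24 and -0.07.

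Laptm5 itself (chromosome 4, 130913125 to 130936141) was widespread, above TPM 1 in 48 cells, with a median of 194 TPM and a range of 0.628 to 1229.5 (highest in cell 4-7). Its rho with Sfpi1 was 0.28 and with the number of genes per cell 0.41. At a rho of at least 0.3 with Laptm5 was 1 of the 29 members (5.43% of rows), Lamtor2, and at -0.3 or below was 1 (0.901% of rows), Ctsl. By partial rho, Lamtor2 was the 1 member at 0.3 or above (1.81% of rows) and 0 members were at -0.3 or below (2.67% of rows). The median rho was 0.03 over members and 0.06 over all rows. The other members lay between these limits.

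Lamtor2 had a rho of 0.31 with Laptm5, a partial rho of 0.32 with genes per cell held fixed, and values of 0.15 to 0.45 within title numbers. Ctsl had a rho of -0.31, a partial rho of -0.21, and values of -0.50 to 0.09 within title numbers, negative in 3 of the 4. Without the cells of title number 2, Lamtor2 was at 0.26 and Ctsl at -0.28, and without those of number 3 they were at 0.26 and -0.27. Against the number of genes per cell, Ctsl was also the member at -0.3 or below (-0.31, as were 1.08% of rows), and 4 members were at 0.3 or above (27.4% of rows), namely Ctsd at 0.39, Ctsb at 0.34, and Atp6v0a1 and Ctsc at 0.31. In the 3 cells with the least Laptm5, 4-13, 2-16 and 3-11, at 0.628, 0.707 and 1.08 TPM of Laptm5, Ctsl was 2176, 2695 and 3496 TPM, and Lamtor2 was 79.4, 95.4 and 129 TPM. All 3 ranked 8th or higher of 50 for Ctsl and 46th or lower for Lamtor2. The next cell, 2-12 with 2.895 TPM of Laptm5, ranked 16th for Ctsl and 24th for Lamtor2, and the cells with the most Laptm5, 4-7 and 3-2, ranked 29th and 27th for Lamtor2. Neither gene therefore followed Laptm5 closely over its whole range.

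**Figure D4:**
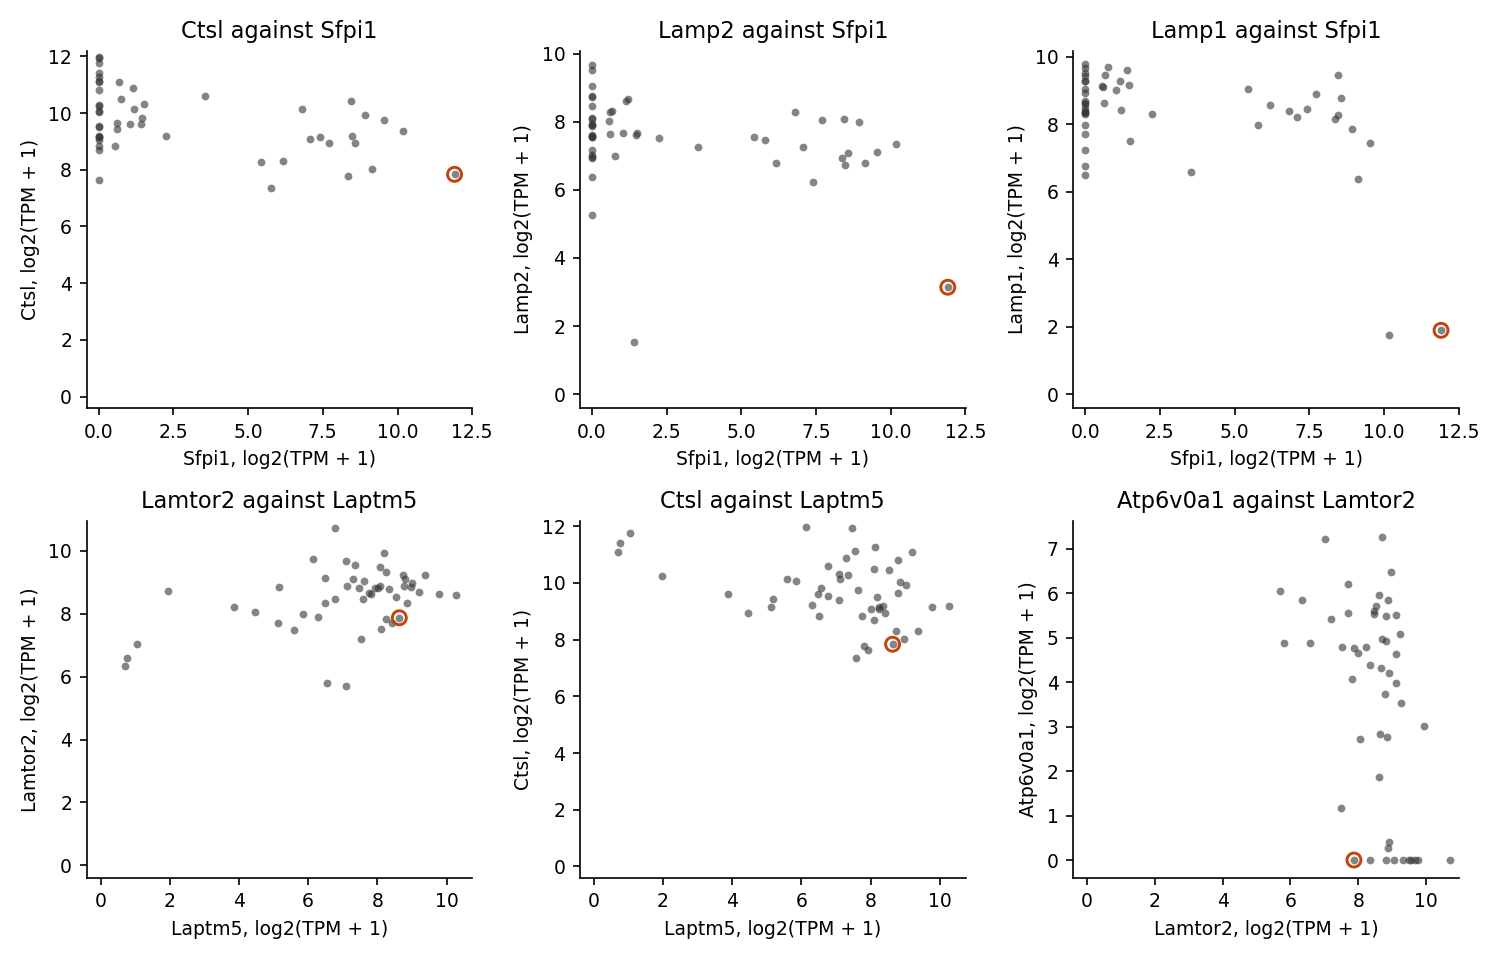
Each point is 1 of 50 cells on log2(TPM + 1) axes for 6 pairs of genes, and the ringed point is cell 4-6, which had the fewest genes above TPM 1. The 3 panels against Sfpi1 show Ctsl, Lamp2 and Lamp1 (rho -0.36, -0.34 and -0.30), the next 2 show Lamtor2 and Ctsl against Laptm5 (0.31 and -0.31), and the last shows Atp6v0a1 against Lamtor2 (-0.46).

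Of the remaining members with Laptm5, the V-ATPase genes ran from -0.15 (Atp6v1e1) to 0.17 (Atp6v1f), and the cathepsins up to 0.22 (Ctsz). By Pearson's r of log2(TPM + 1), Ctsz was at 0.43 and Lamtor3, with a rho of 0.11, at 0.30. Lamp2 had the lowest rho of the Lamp and Lamtor genes, -0.24, and a Pearson r of -0.11. From the lysosome lists, 2 of 90 genes were at 0.3 or above (2.22%, against 5.43% of all rows) and 0 at -0.3 or below (0.901% of all rows). Man2b1 had a rho of 0.37 and Gga2, an adaptor that sorts lysosomal enzymes, of 0.30. Of 6 myeloid rows, 3 were at 0.3 or above (5.43% of all rows), Fcgr3 (0.44), Fcer1g (0.31) and Tyrobp (0.30), of 5 early blood rows 1 was, Runx1 (0.32), and of 7 leukocyte rows none was. The 5 highest rows of the table were Hrsp12 (0.64), Speg (0.57), Cep250 (0.54), Phpt1 (0.53) and Prkcd (0.52), none of them a gene of the lysosome lists.

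Runx1, the induced factor, was above TPM 1 in 43 cells. At a rho of at least 0.3 with it was 1 of the 29 members (6.49% of rows), Ctse at 0.32. At -0.3 or below were 2 members (1.03% of rows), Ctsb at -0.41 and Lamp2 at -0.33. Cassette and endogenous Runx1 cannot be told apart in gene-level TPM.

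Finally, the members were related to each other. Over the 406 pairs of the 29 members the median rho was 0.09, against 0.04 over all pairs of the 9104 rows tested, and 9.11% of member pairs had a rho of at least 0.3, against 4.46%. With genes per cell held fixed, the medians were 0.08 and 0.01. Within the V-ATPase the median was 0.08 and 7 of 91 pairs reached 0.3, and within the cathepsins it was 0.09 with 3 of 55 pairs. Pairs overlap in their genes and share the same cells, so these medians are descriptions. Members with TCACGTGA in a promoter had a median of 0.10 over 10 pairs, and members with a promoter lacking it 0.07 over 91 pairs.

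The highest pairs joined the pump head, Lamp genes and cathepsins. Atp6v1b2 and Lamp1 had a rho of 0.59, with 0.21 to 0.71 within title numbers. Ctsb and Ctsd had 0.53 (0.43 to 0.66 within title numbers), and Lamp1 had 0.45 with Ctsd and 0.44 with both Ctsb and Ctsz. The pair of Ctsb and Lamp1 was less even, with 0.02 to 0.80 within title numbers and a Pearson r of 0.20. So was that of Ctsz and Lamp1, with 0.06 to 0.71 within title numbers and a Pearson r of 0.71. Ctsh and Lamp2 had 0.53 (0.17 to 0.57 within title numbers). Atp6v1b2 and Ctsa had 0.51, but -0.13 to 0.81 within title numbers and a Pearson r of 0.21. Atp6v1g1 and Ctsh had 0.45 (0.06 to 0.59), and Ctsl and Lamp2 had 0.44 (0.21 to 0.82). Within the pump, the highest pairs were Atp6v1b2 with Atp6v1d (0.43) and with Atp6v1c1 (0.42).

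At -0.3 or below was 1 of the 406 pairs (0.246%, against 1.24% over all pairs of rows), Atp6v0a1 and Lamtor2, with a rho of -0.46 and -0.48 to -0.21 within title numbers. Of all cells, 2-15 had the most Lamtor2, 1678 TPM, and was at 0 for Atp6v0a1. The next was 2-9, with 969.7 TPM of Lamtor2 and 7.08 TPM of Atp6v0a1. Cells 4-1 and 4-2, with 859 and 819 TPM of Lamtor2, were again at 0 for Atp6v0a1, so that the upper end of Lamtor2 held little of this isoform.

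**Figure D5:**
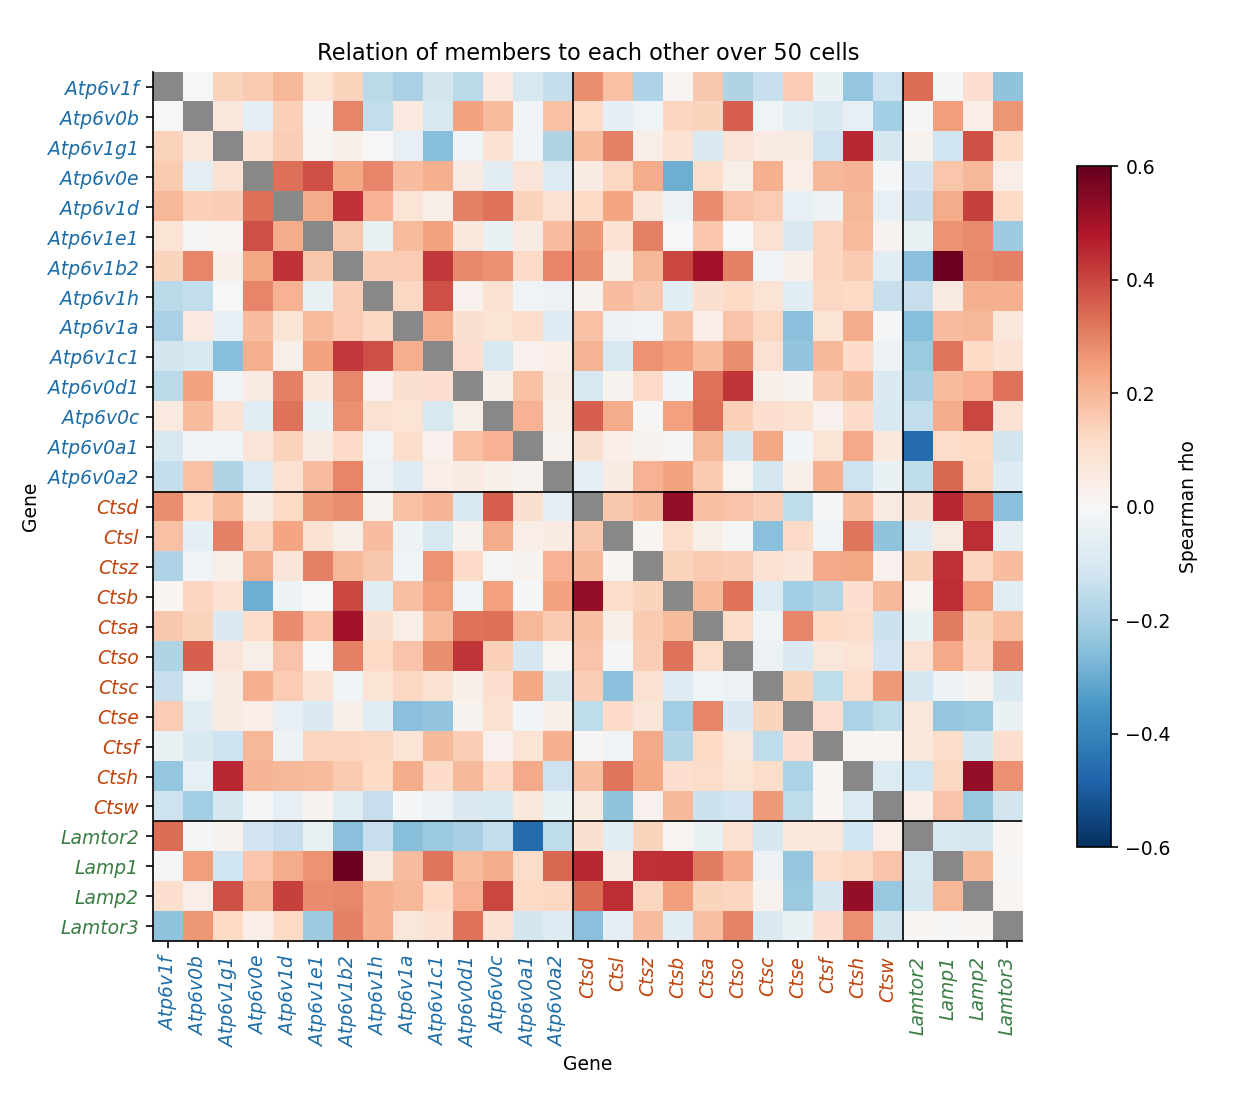
Each square gives the Spearman rho over 50 cells of the gene in its row and the gene in its column (red positive, blue negative, grey the gene with itself), for the 29 members ordered by class and median, with black lines between classes. Atp6v1b2 with Lamp1 (0.59) is the darkest red and Atp6v0a1 with Lamtor2 (-0.46) the darkest blue.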

How the data were processed

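Per the submitters' processing notes, the authors used bcl2fastq, aligned reads to mm10 with HISAT2 2.1.0, and used SAMtools 0.1.19 and StringTie 1.3.4. The deposited values are TPM per gene and cell, with column sums of 942975 to 970894. Depth cannot be had from TPM, no molecular identifiers were named, and the selection of rows is not given in the sources used here. Libraries came from amplified polyA cDNA; the series text and the paper name different sequencers.

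The members and lists were chosen with earlier results of these data known. A gene counted as present above TPM 1. Shares have Clopper-Pearson 95% intervals, spread is the SD of log2(TPM + 1) (pseudocount 1), and relations are Spearman's rho over cells in rows above TPM 1 in at least 20% of cells, with a limit of 0.3. The relation code was tested on simulated data. Named were all members, Sfpi1, Laptm5, Runx1, Ptprc, 3 accessory pump genes, the TFE factors, the 3 highest rows of each other list with those at a rho of 0.3 or more, and the 5 rows closest to each factor. The mesenchymal and erythroid lists, with no row above TPM 1 in 20% of cells, were left out of this naming. Lyz2, list rows at -0.3 or below, overlapping genes, top pairs and low-count members were added after their values were seen. First title numbers 1 to 4, of unstated meaning, held 11, 14, 13 and 12 cells. No 2 columns were identical, all cells were kept, and doublets were not called. Gene positions are those of GENCODE M21 on GRCm38, the assembly behind mm10. Python 3.11.15, pandas 2.3.3 and scipy 1.17.1 were used.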

Additional observations from a re-analysis of the deposited data

How the results depend on the processing

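No paired analysis was possible because all cells belong to 1 group. The number of members above the level in at least 90% of cells was 20, and was 19 to 21 under every alternative. All 13 pump positions were filled in 78% of cells, in 62% at a level of TPM 10, and in 73.0% to 83.3% without the cells of 1 first title number at a time; the stricter level counts fewer genes as present by its construction. The median SD over the 29 members above TPM 1 in at least 20% of cells was 1.57, and 1.36 to 1.76 under the alternatives. Members at a rho of -0.3 or below with Sfpi1 numbered 3; they were 2 to 4 without a title number, 5 by Pearson's r of log2 values (Lamp1, Ctsl, Atp6v1e1, Ctsd and Atp6v1d, without Lamp2), 3 without cells of fewer than 5000 genes (Ctsl, Ctsb and Atp6v0a2, with Lamp2 at -0.28 and Lamp1 at -0.22), 1 without the 2 cells farthest from the median of Sfpi1 and 1 without the cell of fewest genes, which was also the cell of highest Sfpi1. Members past 0.3 in either direction with Laptm5 numbered 2, with 0 to 3 without a title number (0 without number 2; without number 3 the 2 were Lamp2 at -0.32 and Atp6v0b at 0.31, in place of Ctsl and Lamtor2), 4 by Pearson's r (with Ctsz and Lamtor3), and 1 each under partial rho, without cells of fewer than 5000 genes, without the 2 cells farthest from the median of Laptm5 and without the cell of fewest genes. Ctsl alone stayed at -0.3 or below with Sfpi1 in all of these. The median pairwise rho among members was 0.0885, with 0.0703 to 0.0885 without a title number and 0.0635 over all rows not at 0 throughout. Leaving out the cell of fewest genes was chosen after seeing the data. Where counts moved otherwise, the cause was not tested.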
